A study of Mus musculus with 4 samples.

Results

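Imprinted genes are genes of which mainly one parental copy is transcribed. The 42 imprinted genes described here were chosen by name from the well-known imprinted regions of the mouse, by a rule that uses no measured value but with earlier results of these data known, and were grouped by imprinted cluster and by the parental allele that is usually expressed. A gene counted as measured if a probe set named that gene alone, and 35 of the 42 did, among 19939 genes measured in all. Each of the 35 had 1 such probe set. Gnas, Snrpn, Ube3a and Mirg lay only on probe sets that name several genes, and H19, Kcnq1ot1 and Zrsr1 were named by no probe set, so these genes were not measured here.

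Imprints are mostly, but not always, set in the germ line as DNA methylation of a control region on one parental chromosome. That region then decides in each cell which parental copy of its neighbours is read. Imprinted genes lie in clusters that mix paternally and maternally expressed genes, often with a long noncoding RNA from one allele. Many act in the placenta and in growth of the embryo, among them the growth factor Igf2 and the receptor Igf2r that removes it.

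According to the labels, TS2 and TS1 are mouse lines that come from T lymphocytes carrying CD4. Neither line was treated, and both grew in a medium with murine interleukin-9, a T cell growth factor. RNA of 2 biological duplicates of each line, called A and B, was read on 1 Affymetrix mouse gene array each. No label says whether the duplicates were separate cultures, so the spread between them may be technical, and each line stands for itself alone. Levels are log2 of the deposited intensities, and differences are TS2 minus TS1 on that scale, with the standard error (SE) of limma's linear model and p-values adjusted by Benjamini-Hochberg over all 19939 genes. A gene was called at an adjusted p under 0.05.

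Array medians lay between 88.6 and 92.5 intensity units. The labelled cell type held only in part: Ptprc, which encodes the leukocyte antigen CD45, read 11.11 and 10.96 on the TS2 arrays, against 5.001 and 4.994 on the TS1 arrays, and Cd4 read 5.15 and 5.28 in TS2, against 5.38 and 5.36 in TS1. Of 12 measured T cell markers, 4 were higher in TS2, against 5.05% of all genes, and 1 was higher in TS1, against 8.45%. The 4 were Ptprc, Cd3e, Cd247 and Zap70, and the 1 was Lat. On all 4 arrays, 5 of the 12 lay under the median of all genes, 6.57. Cd3g was not called and read 10.39 and 11.98 in TS2 against 10.52 and 6.07 in TS1. This was the largest gap between the TS1 duplicates of all genes. The interleukin-9 receptor Il9r was bright in both lines, at 11.34 and 11.29 in TS2 and at 11.09 and 10.86 in TS1. Of 3 B cell, 4 myeloid and 4 epithelial markers measured, limma called 0, against 13.5% of all genes. All of the B cell and myeloid markers and 3 of the epithelial markers lay under the median of all genes on every array. Of 3 mast cell markers, 0 were higher in TS2, against 5.05% of all genes, and 1 was higher in TS1, against 8.45%. This was Kit, a growth factor receptor gene, at 5.48 and 5.32 in TS2 against 7.201 and 7.401 in TS1 (adjusted p = 0.00153 by limma). The mast cell protease gene Cpa3 was bright in both lines, at 8.91 and 7.95 in TS2 and 9.13 and 8.995 in TS1, Ms4a2 was dim in both, and the summed intensity of the 3 was 303 to 544 in TS2 and 695 to 725 in TS1. The part of these cell type markers in the differences below was not tested.

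The start regions below belong to the genes on which the results turn and for which a window was at hand: Sfmbt2, Tssc4, Igf2r and the long noncoding RNA Airn, which starts inside Igf2r on the other strand. Each runs from 250 bases before the annotated start to 50 bases after it, in RefSeq's mouse build GRCm38.p6, written 5′ to 3′ on the gene's own strand. Capitals mark CpG, the pair of bases that DNA methylation acts on.
Sfmbt2, chr2:10372186-10372485, plus strand: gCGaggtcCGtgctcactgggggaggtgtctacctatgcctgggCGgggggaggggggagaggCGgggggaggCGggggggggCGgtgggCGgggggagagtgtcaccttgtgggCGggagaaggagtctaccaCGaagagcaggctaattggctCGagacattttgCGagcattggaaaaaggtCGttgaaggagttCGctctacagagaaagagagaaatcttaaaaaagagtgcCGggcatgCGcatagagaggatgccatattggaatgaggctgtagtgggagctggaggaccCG
Tssc4, chr7:143069118-143069417, plus strand: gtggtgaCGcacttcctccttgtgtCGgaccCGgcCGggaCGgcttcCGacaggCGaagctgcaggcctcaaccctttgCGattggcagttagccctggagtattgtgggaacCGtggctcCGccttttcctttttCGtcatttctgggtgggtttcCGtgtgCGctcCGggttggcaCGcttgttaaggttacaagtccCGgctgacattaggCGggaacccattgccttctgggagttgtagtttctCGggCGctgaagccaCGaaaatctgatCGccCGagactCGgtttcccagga
Igf2r, chr17:12769657-12769956, minus strand: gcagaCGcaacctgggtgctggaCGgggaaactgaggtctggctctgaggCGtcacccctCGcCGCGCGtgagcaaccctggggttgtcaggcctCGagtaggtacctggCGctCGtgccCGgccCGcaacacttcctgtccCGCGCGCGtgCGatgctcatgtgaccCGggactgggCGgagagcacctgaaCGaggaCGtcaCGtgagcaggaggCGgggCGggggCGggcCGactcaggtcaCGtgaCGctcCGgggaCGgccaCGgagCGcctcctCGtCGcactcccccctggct
Airn, chr17:12741061-12741360, plus strand: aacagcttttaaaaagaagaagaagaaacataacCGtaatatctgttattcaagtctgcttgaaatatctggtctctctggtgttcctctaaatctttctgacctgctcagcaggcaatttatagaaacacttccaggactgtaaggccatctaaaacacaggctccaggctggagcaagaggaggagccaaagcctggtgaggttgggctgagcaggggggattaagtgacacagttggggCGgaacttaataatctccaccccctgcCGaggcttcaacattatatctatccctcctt

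The windows differ most in CpG. The Igf2r window holds 34 CpG, a count that 7.73% of 32851 mouse start windows of the same length reach, and the Tssc4 window holds 23, which 21.5% reach. The Sfmbt2 window shown holds 16, and a window further upstream, at chr2:10370201-10370500, holds 9. The Airn window holds 3, which 76.7% of all windows reach. The motif TGCCGC, which the imprint-keeping factor ZFP57 binds when methylated, was found on neither strand of these windows, and 11.6% of all windows hold it. A motif of the factor YY1 was also not found, and 0.986% of all windows hold it. The intensities below carry no allele and no methylation, so these letters are context for the genes and not a measurement in the lines.

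Most imprinted genes did not pass the test between the lines, and a few differed by a large amount. Peg10, Sgce and Sfmbt2, all paternally expressed, were at least 8-fold higher in TS1, and Tssc4, maternally expressed in placenta, was 2.0-fold higher in TS2. The other 31 measured genes were not called. Higher in TS2 was therefore 1 of 35 (2.86%), against 5.05% of all genes, and higher in TS1 were 3 of 35 (8.57%), against 8.45% of all genes, both shares close to or under the background. Calls of at least 2-fold were 1 of 35 with TS2 higher, against 2.25% of all genes, and 3 of 35 with TS1 higher, against 2.94%. Calls of at least 8-fold were 0 of 35 with TS2 higher, against 0.381% of all genes, and 3 of 35 (8.57%) with TS1 higher, against 0.426%, from 3 genes of which 2 are neighbours. Neither fold limit was part of the planned test. The 8-fold limit lies under the smallest of these 3 differences, 10.4-fold for Sfmbt2, so the share at this limit is no support for an excess. At an unadjusted p under 0.05, limma had 4 imprinted genes higher in TS2 (11.4%, against 12.3% of all genes) and 6 higher in TS1 (17.1%, against 17.1%). The median difference was 0.06 over the 35 genes and 0.013 over all genes. RNA of a whole culture cannot tell fewer cells that make a transcript from less transcript per cell.

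**Figure D1:**
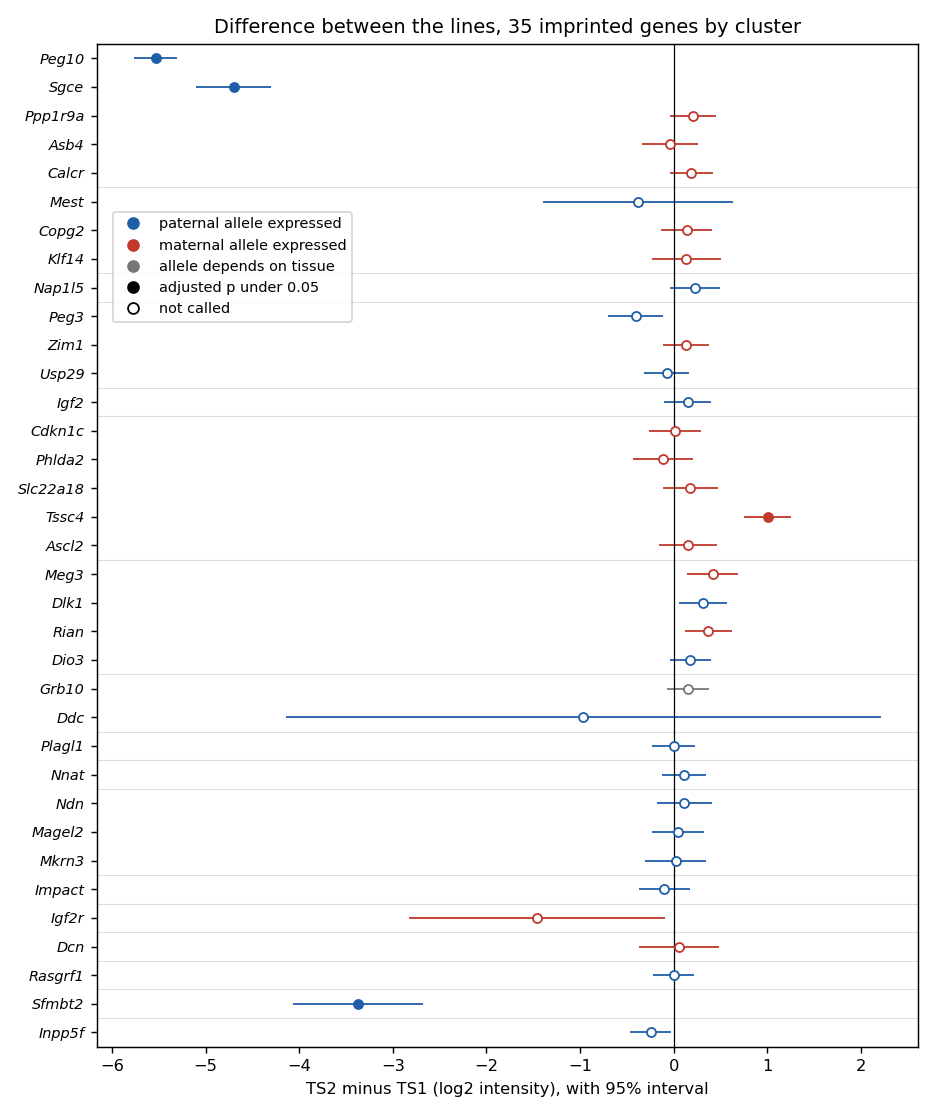
Difference between the lines for the 35 measured imprinted genes, in log2 intensity (TS2 minus TS1), ordered by cluster, with 95% intervals from limma as bars. Filled points passed an adjusted p under 0.05: Peg10, Sgce and Sfmbt2 lie far left, at -5.53, -4.70 and -3.38, Tssc4 lies right, at 1.003, and Ddc, Igf2r and Mest have the widest intervals.

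Peg10 and Sgce differed together. Peg10, a protein gene derived from a retrotransposon and needed for the placenta, read 5.42 and 5.45 on the TS2 arrays, against 11.01 and 10.93 on the TS1 arrays. The groups lay far apart and each pair of duplicates lay close, with a difference of -5.53 (SE 0.088, adjusted p = 9.39e-05 by limma). By size this was rank 7 of all genes higher in TS1. Sgce, which encodes epsilon-sarcoglycan, a membrane protein, read 4.90 and 5.07 in TS2 and 9.88 and 9.49 in TS1. Its difference was -4.70 (SE 0.16, adjusted p = 0.000378), a 26.0-fold excess in TS1 and rank 19 in that direction. These genes lie head to head, are both read from the paternal allele, and share one methylated control region. The maternally expressed members of the same cluster showed no such gap. The neurabin gene Ppp1r9a differed by 0.20 (adjusted p = 0.243), Asb4, of the ankyrin repeat and SOCS box family, by -0.04 (adjusted p = 0.880), and Calcr, the calcitonin receptor gene, by 0.19 (adjusted p = 0.243), and all 3 were dim on every array, between 4.54 and 5.35.

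The measured genes around this gene pair did not pass the test. Casd1, the measured gene next to Sgce, read 9.01 and 8.92 in TS2 and 8.90 and 8.99 in TS1, a difference of 0.018 (adjusted p = 0.933). Of the 11 measured genes that lie inside the cluster and are not among the 42, limma called 0, and of the 6 that flank it, 0. The share called over all genes was 13.5%. Nearest outside were Vps50, at -0.28 (adjusted p = 0.356), and Pdk4, at 0.05 (adjusted p = 0.771). Of the 10 measured relatives of Peg10, other genes derived from the same kind of element or built like them, 0 were higher in TS2, against 5.05% of all genes, and 1 was higher in TS1, against 8.45%. This was Rtl8c, at 5.98 and 6.51 in TS2 against 8.48 and 8.22 in TS1 (difference -2.10, SE 0.20, adjusted p = 0.00546). Rtl8c has near-identical copies, so its single value is uncertain.

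**Figure D2:**
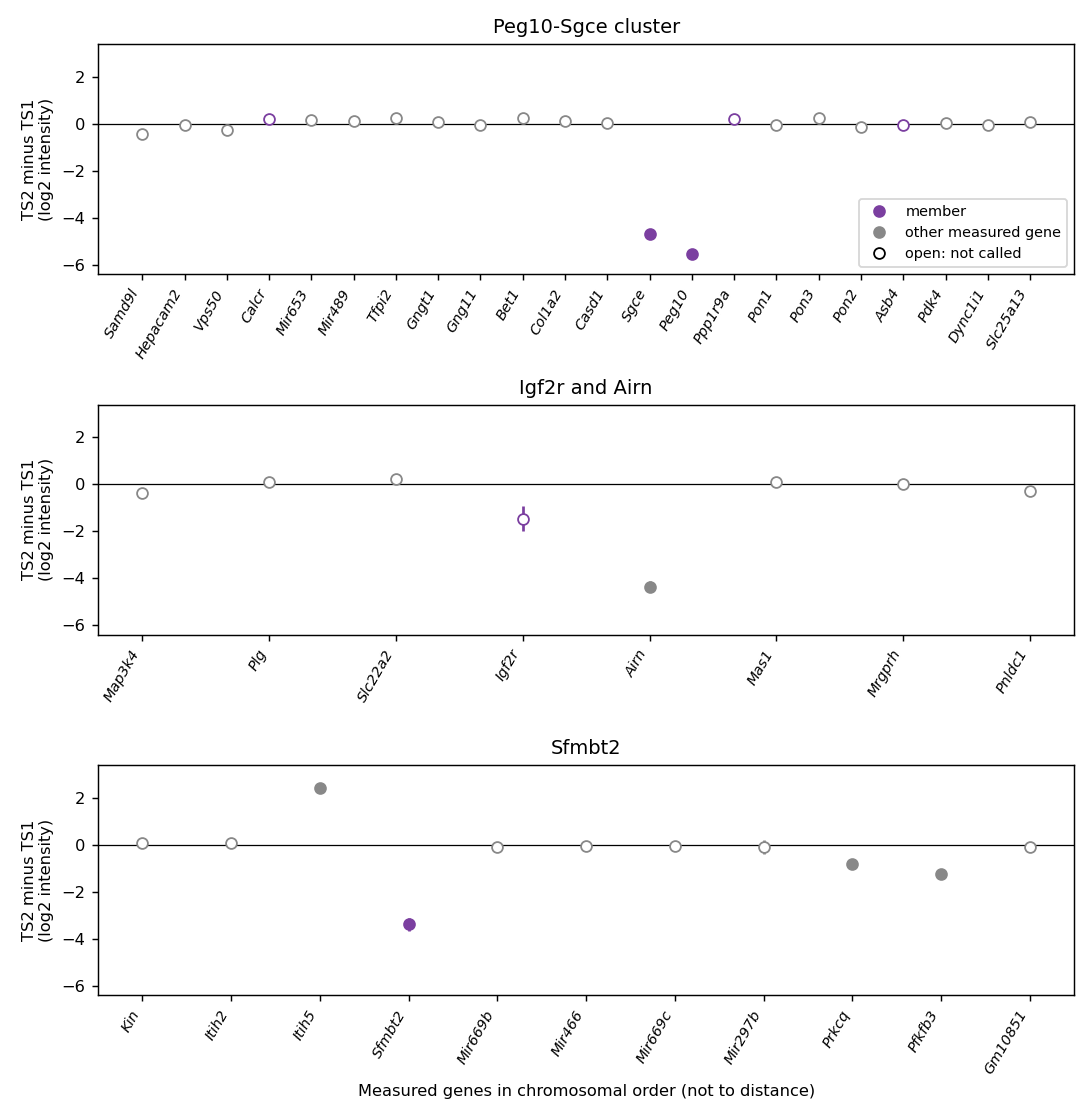
Difference between the lines (log2 intensity, TS2 minus TS1, bars give the SE) for measured genes in their order along the chromosome, around Peg10 and Sgce, Igf2r, and Sfmbt2. Filled points passed an adjusted p under 0.05: Sgce and Peg10 stand alone among 22 genes, Airn lies at -4.36 beside an uncalled Igf2r at -1.46, and Sfmbt2 lies between called genes of both directions.

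Sfmbt2 was the third paternally expressed gene with a large excess in TS1. It encodes a Polycomb group protein and is imprinted in extraembryonic tissue. It read 5.31 and 5.19 in TS2, against 8.23 and 9.03 in TS1, so the groups did not overlap although the TS1 duplicates lay 0.81 apart. The difference was -3.38 (SE 0.27, adjusted p = 0.00312), a 10.4-fold excess in TS1. Other genes near Sfmbt2 also differed, and not in one direction. Itih5 on one side, which encodes a chain of an inter-alpha-trypsin inhibitor, was higher in TS2 by 2.44 (adjusted p = 0.00325). Prkcq on the other side, a kinase of T cell receptor signalling, was higher in TS1 (difference -0.83, adjusted p = 0.00882). Pfkfb3, an enzyme gene of glycolysis control beyond Prkcq, was also higher in TS1 (difference -1.25, adjusted p = 0.00194). Prkcq no longer passed when TS2 A (adjusted p = 0.0611) or TS2 B (0.0524) was dropped. The 4 measured microRNA genes inside Sfmbt2, Mir669b, Mir466, Mir669c and Mir297b, were not called and differed by -0.095 to -0.034. They belong to a family of near copies, so their values are uncertain.

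Sfmbt2 and Peg10 are known for roles in the placenta, and the trophoblast markers were read beside them. Of 6 measured, 0 were higher in TS2, against 5.05% of all genes, and 2 were higher in TS1, Eomes and Esrrb, against 8.45%. The summed intensity of the 6 was 255 to 260 in TS2 and 675 to 873 in TS1. Of the 6, 5 lay under the median of all genes on every array, the called Esrrb (5.56 and 5.48 in TS2, 6.47 and 6.29 in TS1) and the uncalled Cdx2, Elf5, Tfap2c and Tpbpa. Eomes, at 6.23 and 6.27 in TS2 and 8.87 and 9.39 in TS1, made up most of the sum in TS1. The higher sum in TS1 therefore reads mainly this gene and not the list. Among 6 fibroblast markers, 1 was higher in TS1, against 8.45% of all genes. This was Pdgfra, at 5.26 and 5.76 in TS2 and 6.84 and 7.75 in TS1, and the collagen genes were not called. The part of these markers in the differences was not tested.

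Tssc4 was the only called gene of its cluster. The cluster is controlled by the paternal noncoding RNA Kcnq1ot1, which silences genes around it on the paternal chromosome. Tssc4 read 7.59 and 7.45 in TS2, against 6.53 and 6.50 in TS1, and differed by 1.003 (SE 0.096, adjusted p = 0.00522). Its groups did not overlap and its duplicates lay at most 0.14 apart. The other measured members did not pass: Cdkn1c, an inhibitor of cyclin-dependent kinases, differed by 0.018, Phlda2, which limits growth of the placenta, by -0.11, Slc22a18, a transporter gene, by 0.18, and Ascl2, a transcription factor of trophoblast, by 0.16. Their adjusted p ran from 0.375 for Slc22a18 to 0.941 for Cdkn1c, and all 4 lay under the median of all genes on every array. On either side of Tssc4, Cd81, which encodes a tetraspanin, differed by 0.23 (adjusted p = 0.153), and the ion channel gene Trpm5 by 0.21 (adjusted p = 0.289). Tspan32, another tetraspanin gene of the cluster, read 8.74 and 7.83 in TS2, against 7.40 and 6.85 in TS1, a difference of 1.16 that did not pass (SE 0.35, adjusted p = 0.0985). Of the 5 measured genes inside the cluster that are not among the 42, and of the 6 that flank it, limma called 0, against 13.5% of all genes. The nearest outside were Th, at 0.10 (adjusted p = 0.627), and Nap1l4, at -0.16 (adjusted p = 0.315).

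Igf2r stood apart by its spread. It encodes the receptor that carries lysosomal enzymes and takes up Igf2, and is maternally expressed in mouse. It read 7.29 and 8.34 in TS2, against 8.63 and 9.92 in TS1. The lines did not overlap, but in each line B lay over A, by 1.06 in TS2 and by 1.29 in TS1. The difference was -1.46 (SE 0.53, 95% interval -2.83 to -0.10) and did not pass (adjusted p = 0.149). With 1 array dropped it was -2.11 without TS1 A, -1.99 without TS2 B, -0.94 without TS2 A and -0.82 without TS1 B, with adjusted p from 0.0715 to 0.448. Airn, not among the 42, starts 28395 bases downstream of the Igf2r start on the opposite strand and is the paternally transcribed RNA that silences Igf2r on its own chromosome in many tissues. Airn read 5.75 and 6.10 in TS2 and 9.98 and 10.59 in TS1. Its difference was -4.36 (SE 0.24, adjusted p = 0.00103), rank 27 among genes higher in TS1. Both genes of this sense and antisense pair were thus brighter on both TS1 arrays than on either TS2 array. The transcripts overlap, and whether each probe set reads its own strand alone was not tested. The flanking genes Slc22a2 and Mas1 differed by 0.25 (adjusted p = 0.395) and 0.10 (adjusted p = 0.576).

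**Figure D3:**
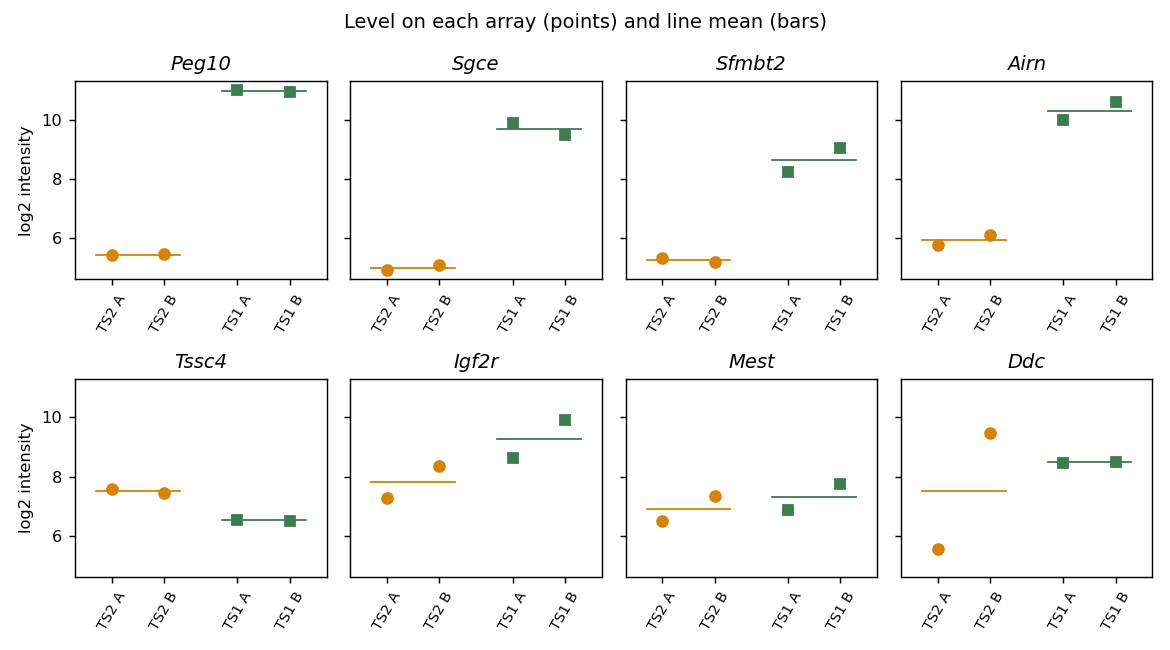
Log2 intensity on each of the 4 arrays (points) and line means (bars) for 8 genes. Peg10, Sgce, Sfmbt2 and Airn separate the lines by 3.38 to 5.53, Tssc4 by 1.003, Igf2r and Mest lie higher on B than on A in both lines, and the TS2 arrays of Ddc lie 3.92 apart.

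Mest differed more between duplicates than between lines, and so did Ddc in TS2 but not in TS1. Ddc, the decarboxylase that makes dopamine and serotonin, read 5.55 and 9.47 in TS2, against 8.45 and 8.50 in TS1. The gap of 3.92 between the TS2 duplicates is reached by 5 of 19939 genes, Ddc included. The mean difference of -0.96 (SE 1.24, adjusted p = 0.675) therefore describes neither TS2 array: without TS2 A the difference was 0.995 (adjusted p = 0.0331) and without TS2 B it was -2.92 (adjusted p = 0.00271). Grb10, a growth-limiting adaptor beside Ddc, differed by 0.16 (adjusted p = 0.318) with duplicates at most 0.065 apart. Mest, the paternally expressed gene of a hydrolase-like protein, read 6.49 and 7.34 in TS2 and 6.86 and 7.74 in TS1. Here too B lay over A in both lines, by 0.85 and 0.88, and the lines overlapped (difference -0.38, adjusted p = 0.594). Mir335, a microRNA gene inside Mest, read 4.47 to 4.58 over the 4 arrays. Copg2, a coatomer gene beside Mest, was bright on all arrays (9.93 to 10.20) and differed by 0.14 (adjusted p = 0.463), and Klf14, a zinc finger factor gene, by 0.13 (adjusted p = 0.612).

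**Figure D4:**
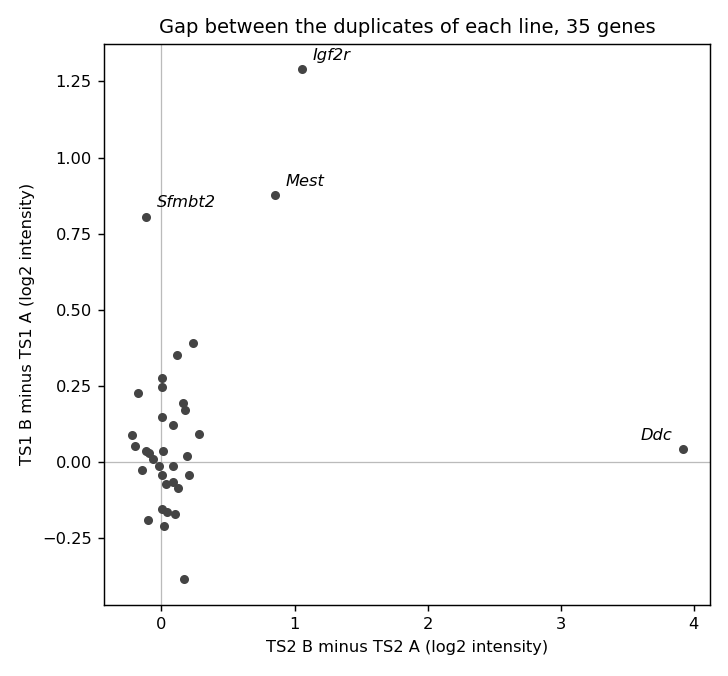
Gap between duplicates, B minus A in log2 intensity, in TS2 (horizontal axis) and in TS1 (vertical axis), 1 point for each of the 35 genes. Ddc lies far right, at 3.92 in TS2 and 0.044 in TS1, Igf2r and Mest are high on both axes, and Sfmbt2 is high in TS1 alone.

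The gap between duplicates was small for most of the other imprinted genes. Its median over the 35 was 0.12 in each line, against 0.11 in TS2 and 0.13 in TS1 over all genes. At least 0.5 was reached by 3 of the 35 in TS2 (8.57%, against 2.97% of all genes), namely Ddc, Igf2r and Mest, and by 3 in TS1 (8.57%, against 5.18%), namely Igf2r, Mest and Sfmbt2.

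Of the 4 measured members in the Dlk1-Meg3 cluster, limma called 0, with Meg3, Rian and Dlk1 at an unadjusted p under 0.05. Meg3, a maternally expressed noncoding RNA, read 5.79 and 5.81 in TS2, against 5.49 and 5.28 in TS1 (difference 0.42, SE 0.11, adjusted p = 0.0697). Rian, a noncoding RNA that hosts small nucleolar RNAs, read 4.60 and 4.60 in TS2 and 4.31 and 4.16 in TS1 (difference 0.37, adjusted p = 0.0747). Dlk1, a paternally expressed relative of Notch ligands, differed by 0.32 (adjusted p = 0.111), and Dio3, a deiodinase of thyroid hormone, by 0.18 (adjusted p = 0.249). Of the 43 other measured genes inside this cluster, mostly microRNA genes, limma called 0, against 13.5% of all genes. Of the 43, 31 had a difference above 0, against 10503 of all 19939 genes. Over the 43, differences ran from -0.21 to 0.53 with a median of 0.10, against 0.013 for all genes. Most of the 43 lay under the median of all genes on every array. Meg3, Rian and Dio3 lay under the median of all genes on every array, and Dlk1 over it.

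The other measured members did not pass either. Peg3, a zinc finger gene, read 5.28 and 5.28 in TS2, against 5.56 and 5.81 in TS1 (difference -0.41, adjusted p = 0.0867), with its neighbours Zim1, a zinc finger gene, at 0.13 and Usp29, a ubiquitin peptidase gene, at -0.08. Inpp5f, a phosphoinositide phosphatase gene, read 7.46 and 7.47 in TS2 and 7.73 and 7.68 in TS1 (difference -0.24, adjusted p = 0.139). The growth factor Igf2 itself read 5.84 and 5.93 in TS2 and 5.68 and 5.80 in TS1 (difference 0.15, adjusted p = 0.387). Impact, a regulator of translation, was bright in both lines, at 9.58 and 9.38 in TS2 and 9.56 and 9.61 in TS1. In the Snrpn-Ube3a region, Ndn and Magel2, of the MAGE family, and Mkrn3, a ring finger gene, differed by 0.11, 0.05 and 0.021. Nap1l5, a nucleosome assembly protein relative, differed by 0.22, Nnat, which encodes neuronatin, by 0.11, and Dcn, the gene of the matrix proteoglycan decorin, by 0.06. Plagl1, a zinc finger regulator of other imprinted genes, differed by -0.0006, and Rasgrf1, a Ras exchange factor, read 4.90 to 4.92 over the 4 arrays. Leaving aside Ddc, Igf2r and Mest, the 28 uncalled genes differed by -0.41 to 0.42, with SE of 0.085 to 0.17.

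Brightness split the imprinted genes. Of the 35, 23 (65.7%) lay under the median of all genes on all 4 arrays, against 46.3% of all genes, and 6 lay over it on all arrays. These 6 were Copg2, Klf14, Dlk1, Impact, Igf2r and Inpp5f. Peg10, Sgce and Sfmbt2 were over the median on the TS1 arrays alone and Tssc4 on the TS2 arrays alone. Brightness also depends on the probes, and signal over background was not examined, so the true fold of a gene that is dim in one line may be larger than given. In 15 of the 35, both TS2 arrays lay above both TS1 arrays (42.9%, against 29.1% of all genes), and in 6 both lay below (17.1%, against 29.3%). Of the 15, 14 were uncalled and differed by 0.11 to 0.42. All of these 14 but Copg2 and Dlk1 lay under the median of all genes on all 4 arrays. The shares over all genes were not matched for brightness.

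Grouped by allele, 0 of 19 measured paternally expressed genes were higher in TS2 and 3 were higher in TS1, and of 15 measured maternally expressed genes 1 was higher in TS2 and 0 in TS1. The shares over all genes were 5.05% with TS2 higher and 8.45% with TS1 higher. The median difference was -0.0006 for the paternal group and 0.14 for the maternal group, against 0.013 for all genes. Peg10 and Sgce share a control region and are no independent counts. Grb10, whose expressed allele depends on the tissue, stayed out of both groups. The arrays measure both alleles together, so which parental copy was read in these lines is unknown.

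Genes flanking the clusters showed differences at about the common rate. Of the 111 measured genes that flank the clusters, 3 on either side, 8 were higher in TS2 and 7 higher in TS1, together 15, against 13.5% of all genes. Of 69 measured genes inside the clusters, 0 were higher in TS2, against 5.05% of all genes, and 1 was higher in TS1, Airn, against 8.45%. Of the 69, 43 lie in the Dlk1-Meg3 cluster, mostly microRNA genes and mostly under the median of all genes on every array.

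Further imprinted genes outside the 42 gave 2 of 33 higher in TS2, against 5.05% of all genes, and 1 higher in TS1, against 8.45%. Higher in TS2 were Atp10a, a phospholipid flippase gene beside the Snrpn-Ube3a region, by 1.33 (adjusted p = 0.0197), and Trappc9, a gene of vesicle transport, by 0.66 (adjusted p = 0.0212), and the third was Airn. Atp10a no longer passed when TS2 A (adjusted p = 0.0987) or TS2 B (0.0774) was dropped. Trappc9 kept its call in 7 of 11 alternative fits, over which its difference ran from 0.58 to 0.78. It no longer passed when TS1 A, TS2 A or TS2 B was dropped, or with the letter A or B as a block. Limma called 0 of the 21 microRNA genes measured in the clusters, against 13.5% of all genes. An unadjusted p under 0.05 by limma was reached by 0 of them. Over all genes it was reached by 12.3% with TS2 higher and 17.1% with TS1 higher. Of the 21, 18 lay under the median of all genes on every array. Most of the 21 were already counted above inside the Dlk1-Meg3 cluster.

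Of 26 measured factors that set, keep or remove imprints, 0 were higher in TS2, against 5.05% of all genes. Higher in TS1 were 3, against 8.45%. Tet1, which oxidises methylated cytosine, read 5.35 and 5.72 in TS2, against 7.85 and 8.24 in TS1 (difference -2.51, SE 0.19, adjusted p = 0.00262). Dnmt3b, a methyltransferase that sets new methylation, differed by -0.89 (adjusted p = 0.0059) and Tet3 by -0.60 (adjusted p = 0.0232), and the call of Tet3 was lost whichever array was left out (adjusted p = 0.0628 to 0.128). In the insulin-like growth factor pathway, limma called 2 of 16 measured genes, both higher in TS2, against 13.5% of all genes called in either direction. Igfbp6, a binding protein that prefers Igf2, read 9.19 and 9.16 in TS2, against 7.50 and 7.37 in TS1 (difference 1.74, SE 0.095, adjusted p = 0.00103). Insr, the insulin receptor gene, differed by 1.27 (adjusted p = 0.0136) and no longer passed when TS2 A (adjusted p = 0.074) or TS2 B (0.053) was dropped.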

How the data were processed

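Total RNA of 4 samples was read on 1 array each, 2 of TS2 and 2 of TS1. Expression Console and RMA made the values, per the submitters' processing notes, in which versions are not stated. The deposited numbers are linear intensities, from 5.98 to 23157 over 35556 probe sets, and log2 of them was taken with no pseudocount. RMA equalises the arrays' distributions over probes, which removes most of a change common to all genes. Gene names came from GEO's annotation of the array, which gave 21789 probe sets with 1 symbol, 1621 with several and 12146 with none. Symbols were updated through RefSeq's GRCm38.p6 gene table, which held the gene of 21698 probe sets with 1 symbol. The brightest single-gene probe set stood for each of 19939 genes.

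One linear model with the line as factor was fitted to all genes with limma 3.58.1 in R 4.3.3, with 2 residual and 3.03 prior degrees of freedom. With 2 arrays a line, the smallest two-sided p of an exact permutation test is 0.333, so none was used. The fit was tested on simulated data with known differences. Neighbours were taken by order along the chromosome in the RefSeq table. Full values are given for called members and for those that differed by at least 1 on the log2 scale, with the nearest neighbours of clusters that hold a called member and up to 4 called genes of each list. Other genes with array values, such as Mest, Meg3, Peg3, Pfkfb3 and Tspan32, were chosen after their values were seen. Start windows were matched by symbol, and 35 of the 42 genes had one. Members and lists were chosen with earlier results of these data known. The fit was repeated with the letter A or B as a block, with single arrays dropped, with a trended or a robust variance prior, after median centring or another quantile normalization, without the dimmest 30% of probe sets, with probe sets averaged per gene, and at an adjusted p under 0.01.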

Additional observations from a re-analysis of the deposited data

How the results depend on the processing

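Peg10, Sgce, Sfmbt2, Tssc4 and Airn kept their direction and their call in all 11 alternative fits, with a highest adjusted p of 0.00239, 0.00358, 0.0193, 0.0375 and 0.00705. No label says that the letters A and B pair the arrays, and the deviations of same-lettered arrays from their line means correlated at 0.025. With the letter as a replicate block, 664 genes were higher in TS2 and 1002 higher in TS1, against 1006 and 1685 without it. The block also called Igf2r (adjusted p = 0.0116), whose adjusted p over all alternatives ran to 0.448. With single arrays left out, 1 to 2 imprinted genes were higher in TS2 and 3 to 4 higher in TS1, against 420 to 861 and 560 to 1337 of all genes. The added call, without TS2 A in TS2 and without TS2 B in TS1, was Ddc, whose difference ran from -2.92 to 0.995. In the same fits the median difference of the imprinted genes ran from 0.019 to 0.16, and it was 0.0087 without the dimmest 30% of probe sets and 0.0146 with another quantile normalization. With single arrays left out the called flanking genes ran from 7 to 14 and the called genes of the other lists from 5 to 9. At an adjusted p under 0.01, 316 genes were higher in TS2 and 491 higher in TS1, with 8 flanking genes and 5 list genes called. Causes were not tested. Sign changes of uncalled genes were seen for Pdk4 (-0.018 with another quantile normalization), Th (-0.0051 without TS2 B, up to 0.20 without TS2 A) and Mest (0.056 without TS1 B and 0.042 without TS2 A, down to -0.82 without TS1 A). The median of all genes, 0.013, was 0.038 after median centring, 0.0051 after another quantile normalization and -0.023 without the dimmest 30% of probe sets. Having 4 arrays limits all values, and a line reduced to 1 array borrows its spread from the pair that remains.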

Other observations

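Igf2r and Mest belong to a small set of genes that were brighter on B than on A in both lines. In both lines B lay at least 0.8 above A for 6 of 19939 genes, 2 of them imprinted members, a limit, a direction and a set chosen after the values were seen. The other genes were Khdrbs3, which encodes an RNA-binding protein and lay 2.32 higher on B in TS2 and 2.80 higher in TS1, Hsd3b6, a steroid dehydrogenase gene, at 1.97 and 1.81, Epb41l4a, at 1.68 and 2.19, and the predicted gene Gm6020, at 0.97 and 0.82. Airn, which overlaps Igf2r, lay 0.35 higher on B in TS2 and 0.60 higher in TS1. What the arrays of one letter share beyond the letter is not given in the sources used here, and the part of such a factor in these gaps was not tested.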
